A study of Mus musculus with 6 samples.

Results

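The genes described here are 5 Siglecs (Siglec1, Cd33, Siglece, Siglecg and Siglech) and 5 paired immunoglobulin-like receptors (Pirb, Lilrb4a, Lilr4b, Pilra and Pilrb1), chosen by symbol through their Ensembl mouse identifiers in GENCODE vM21. All 10 were among the 21780 rows of the count table, and all 10 passed the filter on low counts that left 14429 genes for testing. They were measured by bulk RNA sequencing of CD45+CD11b+ myeloid cells sorted from the pancreas of wild-type C57BL/6 mice, with 3 libraries taken 7 days after an intraperitoneal injection of PBS and 3 libraries taken 7 days after an injection of 1 mg of WGP. WGP, whole β-glucan particles, are hollow yeast cell walls that phagocytes take up through Dectin-1. Mice of both sexes, aged 6 to 8 weeks, were used in the study, and no transgene or deletion was carried by either group. The study describes its samples as independent animals of a single experiment, so the p-values measure the spread between animals within that experiment.

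Siglecs are cell-surface lectins that bind sialic acid, the sugar that caps many glycans of the body's own cells. Most of them, and the inhibitory members of the paired families, carry tyrosine motifs in their tails that are phosphorylated by Src-family kinases and then bind phosphatases such as SHP-1, which dampens activation of the cell. Paired receptors come as an inhibitory and an activating form with closely related outer domains: Pilra with Pilrb1, Pirb with the Pira receptors, and Lilrb4a (gp49B) beside Lilr4b (gp49A), which lacks the inhibitory motifs. The activating forms signal through the adaptors DAP12 (Tyrobp) or the Fc receptor γ chain (Fcer1g). On macrophages and monocytes these receptors are known for setting the threshold of inflammatory responses.

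The libraries held 35334645 to 43341834 counts and 12147 to 12860 detected genes. Counts of Y-linked genes were 8972 and 10063 in PBS replicates 2 and 3 and 0 to 1 in the other 4 libraries, so the libraries differ in the sex of the mice behind them, and sex and treatment cannot be fully told apart. When Y-linked counts (present or absent) enter the fit as a covariate, the WGP contrast rests on PBS replicate 1 alone. The sort markers Ptprc (CD45) and Itgam (CD11b) were present in every library, and both rose after WGP: their summed level was 1203–1231 CPM (counts scaled to the size of a library) after PBS and 1925–2135 CPM after WGP, with log2 fold changes of 0.71 (adjusted p = 0.0073) and 0.79 (adjusted p = 0.0062). The cells were a mixture: summed markers of resident macrophages stood at 10805–22409 CPM after PBS and at 3782–6006 CPM after WGP, with 13 of 15 called lower, and summed markers of Ly6C-high monocytes ranged from 1849–3051 to 6496–8210 CPM, with 5 of 8 called higher. Here and below, levels are CPM scaled by TMM factors, and a gene was called at an edgeR quasi-likelihood adjusted p of at most 0.05, Benjamini-Hochberg over the 14429 genes, with its log2 fold change at 1 or beyond in either direction. In such bulk samples fewer cells of a type and less RNA per cell cannot be told apart.

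The sequences that follow show how alike the paired forms are, which bears on how their reads can be counted and on what their start sites share. The first are the RefSeq promoters (GRCm38.p6, 250 bases before to 50 bases after the start, minus strand) of Pilra at chr5:137836229-137836528 and of Pilrb1 at chr5:137858000-137858299. Capitals mark GAAA followed after any 2 bases by another GAAA, a spacing seen in the response element of interferon-induced factors, and GAGGAA, a pattern like the core of PU.1 sites, both searched on both strands.
Pilra: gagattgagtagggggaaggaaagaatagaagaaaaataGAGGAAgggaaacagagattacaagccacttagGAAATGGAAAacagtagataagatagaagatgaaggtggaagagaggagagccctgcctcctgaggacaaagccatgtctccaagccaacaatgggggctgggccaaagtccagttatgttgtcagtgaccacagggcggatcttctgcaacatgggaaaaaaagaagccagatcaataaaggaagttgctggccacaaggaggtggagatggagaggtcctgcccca
Pilrb1: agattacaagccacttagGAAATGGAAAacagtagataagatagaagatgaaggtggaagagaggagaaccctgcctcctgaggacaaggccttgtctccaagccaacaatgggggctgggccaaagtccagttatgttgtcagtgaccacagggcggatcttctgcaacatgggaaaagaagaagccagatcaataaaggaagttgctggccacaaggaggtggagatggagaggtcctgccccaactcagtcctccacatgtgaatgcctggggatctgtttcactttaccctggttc
Over the 246 positions that align between them 242 bases were identical, and both hold the spaced GAAA pattern with the same letters. This pattern occurred in 3.44% of the 32851 promoters of the table and in 2 of the 8 genes described here with a promoter entry, Pilra and Pilrb1. GAGGAA was far more common, at 28.3% of all promoters, and occurred in the entries of 6 of the 8 genes. No occurrence of one pattern overlapped the other. The patterns were chosen with the expression results known, and a match is a description of the letters only.

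The Pirb promoter, chr7:3720333-3720632 on the minus strand, held GAGGAA 3 times, as marked by the capitals, one of them on the opposite strand.
Pirb: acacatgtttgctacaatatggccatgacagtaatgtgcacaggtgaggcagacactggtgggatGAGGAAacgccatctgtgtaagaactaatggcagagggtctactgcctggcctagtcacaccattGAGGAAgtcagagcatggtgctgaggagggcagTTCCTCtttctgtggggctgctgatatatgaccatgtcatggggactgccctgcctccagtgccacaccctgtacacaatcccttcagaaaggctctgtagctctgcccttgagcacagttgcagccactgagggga
Its alignment with the Pira2 promoter covered 272 positions, of which 264 were identical. The promoters of Siglec1 and Lilrb4a were not analysed here.

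The coding sequences of the inhibitory and activating forms shared long identical runs but differed over their whole length. Of the aligned positions 608 of 911 were identical between Pilra and Pilrb1, with 241 gaps. The figures were 871 of 1007 between Lilrb4a and Lilr4b, with 100 gaps, and 1970 of 2523 between Pirb and Pira2, with 483 gaps. The longest identical run between Pilra and Pilrb1 was 121 bases within 1 exon, at chr5:137835423-137835543 in Pilra and chr5:137857248-137857368 in Pilrb1, both on the minus strand.
Pilra and Pilrb1 shared coding run: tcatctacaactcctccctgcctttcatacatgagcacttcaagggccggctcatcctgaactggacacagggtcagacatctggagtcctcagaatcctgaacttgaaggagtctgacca
Between Lilrb4a and Lilr4b the longest identical run was 126 bases, joined across an intron, within chr10:51491665-51491932 in Lilrb4a and chr10:51481371-51481638 in Lilr4b, both on the plus strand.
Lilrb4a and Lilr4b shared coding run: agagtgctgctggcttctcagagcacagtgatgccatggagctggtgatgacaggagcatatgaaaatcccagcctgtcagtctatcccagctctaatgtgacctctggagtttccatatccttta
Both runs are longer than the 75 bases used here as a window, so a read that falls inside one cannot be assigned to a single gene. Of all exonic windows of 75 bases, 40.3% of those of Lilrb4a and 15.0% of those of Lilr4b also occurred in another gene, against 26.9% for Pirb, 14.7% for Pilra and 12.4% for Pilrb1. The gene that shared the most windows was Gm49339 for Lilrb4a and Zcwpw1 for Pilra. Both overlap the receptor gene on the chromosome, so these shares do not measure likeness to the partner receptor alone. The 5 Siglecs shared at most 2.79% of their windows. How the counting treated such reads is not stated, and their part in the values below was not tested.

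Among the 10 genes the inhibitory receptors Pirb and Pilra rose after WGP, and the Siglecs Siglech, Siglecg and Cd33 fell. These 5 of 10 were called, against 9.49% of all genes tested. By direction 2 were called higher, against 4.53% of all genes, and 3 lower, against 4.96%. With the adjusted p alone 2 passed higher, where 7.54% of all genes did, and 4 passed lower, where 6.81% did, the fourth being Lilr4b. The groups did not overlap for 3 genes that were higher after WGP, against 16.0% of all genes, and for 4 that were lower, against 16.1%. The median log2 fold change of the 10 genes was -0.38, beside -0.05 over all genes tested, with 3 fitted values above 0 and 7 below. Pirb, Pilra and Siglech were called under all 16 alternative fits. The number of the 10 genes called was 4 without PBS replicate 1, and 3 without WGP replicate 1 or without WGP replicate 3.

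**Figure D1:**
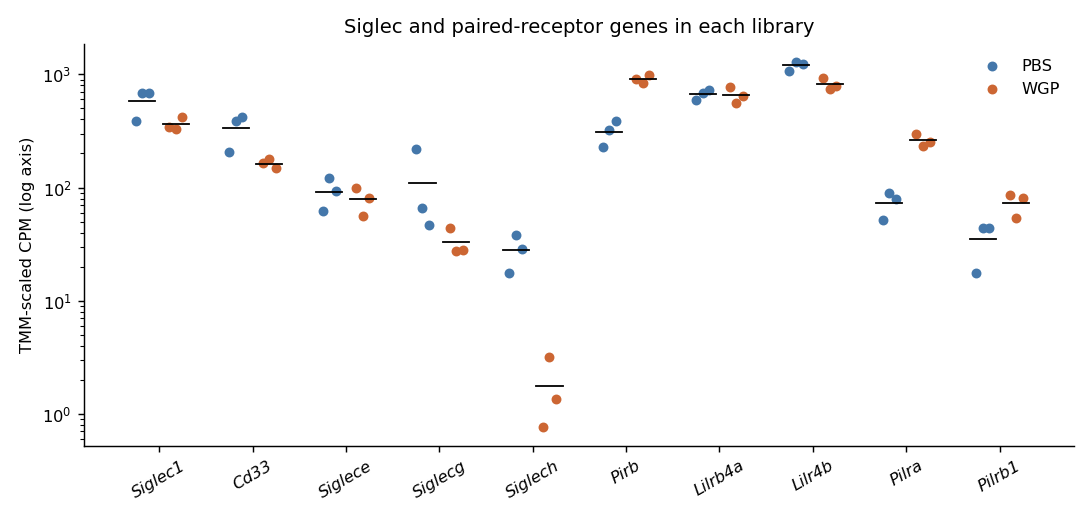
TMM-scaled CPM (log axis) of the 10 genes in the 3 PBS and the 3 WGP libraries, each point 1 library and each bar the group mean. Pirb and Pilra stand higher and Siglech lower in all WGP libraries, while the 3 PBS points of Siglecg run from 46.9 to 217 CPM.

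Per kilobase of exon the order of the genes changed with treatment. In the PBS libraries Lilr4b had the highest mean level, 220 ± 20.1 CPM per kb (SD, n = 3), followed by Lilrb4a at 128 ± 13.6 and Siglec1 at 81.8 ± 24.1. From there the means ran through Pirb (69.7), Siglece (49.9), Cd33 (43.4), Pilra (23.7), Siglecg (22.9) and Pilrb1 (18.0) to Siglech (8.33 CPM per kb), and the libraries of each gene overlapped those of the next. After WGP Pirb had the highest mean level, 203 ± 16.3 CPM per kb, and its libraries did not overlap those of Lilr4b, 152 ± 17.8. Lilrb4a at 127 ± 20.7 overlapped Lilr4b and stood clear of Pilra at 84.7 ± 10.6, which stood clear of Siglec1 at 51.1 ± 6.74 CPM per kb. The next means were Siglece (42.6), which overlapped Siglec1, and Pilrb1 (37.3), which overlapped Siglece. Then came Cd33 (21.0), Siglecg (6.91) and Siglech (0.519 CPM per kb), each clear of the one above.

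Pirb, at chr7:3711409-3720391, encodes the inhibitory receptor that binds MHC class I molecules. Its level was 227, 322 and 386 CPM after PBS and 906, 834 and 979 CPM after WGP. Every WGP library stood above every PBS library, and the gene rose by 1.54 on the log2 scale (SE 0.20, adjusted p = 0.00055). The fold was 2.91, and the log2 fold change ranged from 1.35 to 1.995 over the 16 alternatives.

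Pilra, at chr5:137821952-137836281, encodes the inhibitory receptor of its pair, which binds sialylated glycoproteins. In the PBS libraries it stood at 51.5, 89.7 and 78.5 CPM and after WGP at 298, 234 and 253 CPM. The groups were far apart, and the rise of 1.84 on the log2 scale (SE 0.21, adjusted p = 0.000272), or 3.57-fold, was the largest rise among the 10 genes, with 1.64 to 2.35 over the alternatives. Exons of Zcwpw1 overlap 15.1% of the exon bases of Pilra on the opposite strand, and the strand setting of the counts is not stated.

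Pilrb1, at chr5:137852147-137858106, encodes the activating partner that signals through DAP12. Its values were 17.4, 44.4 and 44.1 CPM after PBS against 85.5, 53.6 and 80.0 CPM after WGP. The groups did not overlap, but the log2 fold change of 1.05 (SE 0.33) missed the threshold, with an adjusted p of 0.0640. It was called in 4 of the 16 alternatives, among them DESeq2 (1.04, adjusted p = 0.0279) and limma-voom (1.13, adjusted p = 0.0467). Leaving out WGP replicate 2 also brought it past the threshold (1.23, adjusted p = 0.0456), as did the Y-linked covariate (2.07, adjusted p = 0.0030).

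Lilrb4a, at chr10:51490956-51496611, encodes the inhibitory receptor gp49B. It stood at 594, 682 and 735 CPM after PBS and at 775, 559 and 650 CPM after WGP, so the groups overlapped fully. Its log2 fold change was -0.02 (SE 0.17, adjusted p = 0.965). Lilr4b, at chr10:51480632-51486703, encodes the related receptor gp49A without inhibitory motifs. It stood at 1074, 1279 and 1241 CPM after PBS and at 934, 748 and 792 CPM after WGP. All WGP libraries were below all PBS libraries, and the gene fell by 0.54 on the log2 scale (SE 0.15, adjusted p = 0.0417), a change too small to be called. It passed the adjusted p in 9 of the 16 alternatives, with -0.64 to -0.38 over all of them. Exons of Gm49339, a coding gene on the same strand, overlap 35.3% of the exon bases of Lilrb4a and 2.24% of those of Lilr4b.

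The balance within each pair was compared as a ratio inside each library, which needs no scaling between libraries. Pilra over Pilrb1 was 2.95, 2.02 and 1.78 after PBS and 3.48, 4.37 and 3.16 after WGP. Lilrb4a over Lilr4b was 0.553, 0.533 and 0.592 in the PBS group and 0.830, 0.747 and 0.820 in the WGP group. Pirb over the summed counts of Pira2 and Lilra6 was 7.17, 7.82 and 9.64 after PBS and 11.8, 18.3 and 14.3 after WGP. For these 3 ratios every WGP library stood above every PBS library. The log2 difference was 0.73 for Pilra over Pilrb1, 0.51 for Lilrb4a over Lilr4b and 0.84 for Pirb over the Pira genes, each with p = 0.1 in a two-sided exact permutation test, the smallest p that 3 against 3 libraries allow, so none could pass 0.05. Leaving out 1 library at a time gave 0.57 to 0.94, 0.48 to 0.56 and 0.67 to 0.99. The third ratio depends on which gene stands for Pira, in a comparison added after seeing the data. Lilra6 made up 84.1 to 95.4% of the summed counts after PBS and 69.3 to 79.9% after WGP. Pirb over Pira2 alone was 52.8, 49.1 and 209 after PBS and 58.4, 67.5 and 46.6 after WGP, with overlapping groups and a log2 difference of -0.52 (exact permutation p = 0.8), while Pirb over Lilra6 alone gave 1.10 (p = 0.1). The Pira genes are also the least certain to count, since 88.3% of the windows of Pira2 and 17.1% of those of Lilra6 occur in other genes.

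**Figure D2:**
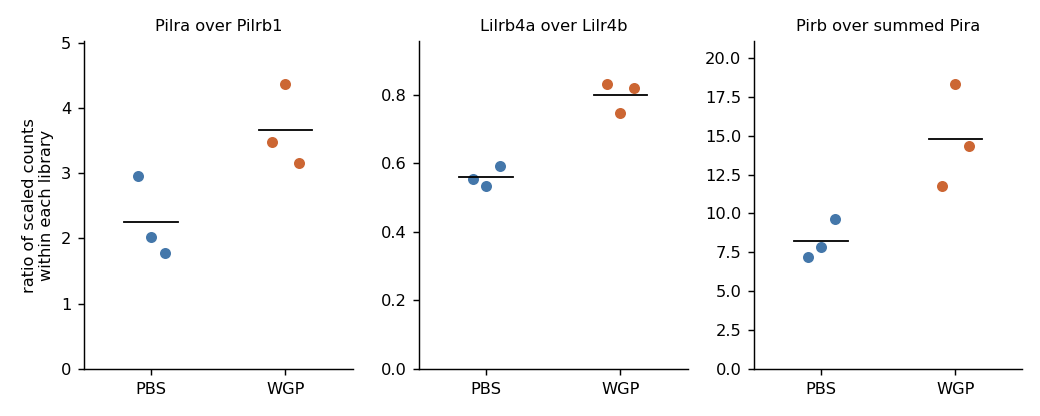
Ratio of counts of the inhibitory over the other form within each library, on linear axes from 0, with 1 point a library and the bar at the group mean. In each of the 3 panels the 3 WGP libraries lie above the 3 PBS libraries, and p = 0.1 in the exact permutation test is the smallest possible. The summed Pira counts are mostly those of Lilra6, and with Pira2 alone the groups overlapped.

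Siglec1, at chr2:131069220-131086765, encodes sialoadhesin, a macrophage receptor that binds sialic acid on other cells and has no inhibitory motif. Its level was 386, 686 and 681 CPM after PBS and 344, 332 and 421 CPM after WGP. PBS replicate 1 lay within the WGP range, and the log2 fold change of -0.68 (SE 0.22) had an adjusted p of 0.0723. The gene passed the adjusted p in 3 of the 16 alternatives, among them DESeq2 (-0.69, adjusted p = 0.0157) and library totals only (-0.77, 0.0324). Without PBS replicate 1 the value was -0.91 with an adjusted p of 0.0019, and with the Y-linked covariate it was -0.079 with an adjusted p of 0.855.

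Cd33, at chr7:43524216-43544428, encodes the mouse form of the myeloid marker CD33. It was measured at 205, 391 and 416 CPM after PBS and at 163, 177 and 148 CPM after WGP. The groups did not overlap, with PBS replicate 1 nearest to the WGP libraries, and the gene fell by 1.05 on the log2 scale (SE 0.24, adjusted p = 0.0151). The log2 fold change sat close to its threshold, and the call held in 9 of the 16 alternatives. The call was lost without PBS replicate 2 (-0.93, adjusted p = 0.0709), without PBS replicate 3 (-0.87, 0.0514), without WGP replicate 1 (-1.05, 0.0574) and without WGP replicate 3 (-0.99, 0.0698). Under limma-voom and the replicate block it was lost by the size of the change alone. With the Y-linked covariate the log2 fold change was -0.33, and the gene was not called.

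Siglece, at chr7:43651070-43660161, encodes an inhibitory Siglec of neutrophils and macrophages. Its PBS values of 61.8, 121 and 93.8 CPM overlapped its WGP values of 99.2, 56.2 and 80.8 CPM. The log2 fold change was -0.23 (SE 0.27, adjusted p = 0.643).

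Siglecg, at chr7:43408204-43418358, encodes an inhibitory Siglec best known from B cells. It stood at 217, 65.7 and 46.9 CPM after PBS and at 44.3, 27.3 and 28.0 CPM after WGP. PBS replicate 1 was far above the other libraries, and the lowest PBS library was just above the highest WGP library. The gene fell by 1.73 on the log2 scale (SE 0.49, adjusted p = 0.0415), and without PBS replicate 1 the log2 fold change was -0.77 with an adjusted p of 0.0806. The call was also lost without WGP replicate 1 (-1.99, adjusted p = 0.0665), 2 (-1.60, 0.108) or 3 (-1.62, 0.137), under limma-voom (-1.44, 0.0995) and under the filterByExpr filter (-1.73, 0.0624). It held in 10 of the 16 alternatives, and with the Y-linked covariate the log2 fold change was -2.71.

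Siglech, at chr7:55768178-55778925, encodes a Siglec without an own signalling motif that pairs with DAP12 and is known from plasmacytoid dendritic cells and microglia. It was counted 676, 1480 and 1184 times after PBS and 28, 131 and 55 times after WGP, or 17.6, 38.0 and 28.9 CPM against 0.760, 3.16 and 1.34 CPM. The highest WGP library was far below the lowest PBS library. The gene fell by 4.0 on the log2 scale (SE 0.55, adjusted p = 0.000827), which made its level 16.0-fold higher in the PBS group, and the range over the alternatives was -4.73 to -3.32. This was the largest change among the 10 genes.

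The lower Siglecs moved beside markers of other cell types. All 9 B cell markers were called lower, with a summed level of 421–2868 CPM after PBS and 101–198 CPM after WGP, none of them at 0. PBS replicate 1, the library with the most Siglecg, also had the highest B cell sum. Taken as a percentage of that sum, Siglecg was 7.57, 9.05 and 11.1% after PBS and 25.8, 13.8 and 27.7% after WGP. Siglecg was thus lower after WGP in level and higher relative to the B cell markers. Cd33 as a percentage of the resident macrophage sum was 1.90, 2.10 and 1.86% against 4.32, 2.95 and 2.85%, and Siglec1 was 3.57, 3.69 and 3.04% against 9.08, 5.53 and 8.11%. Siglech went the other way, from 0.163, 0.204 and 0.129% to 0.020, 0.053 and 0.026% of the same sum. No resident macrophage marker was at 0 in all libraries of a group. Of 11 markers of plasmacytoid dendritic cells 3 were called lower, Tcf4 (-2.002), Ly6d (-3.11) and Spib (-1.96), and the sums were 488–877 and 257–264 CPM. Tcf4 was at 249, 244 and 276 CPM after PBS, but Ly6d was at 249.8, 51.1 and 29.6 CPM and Spib at 205, 65.7 and 38.3 CPM, highest in PBS replicate 1 as the B cell sum was, where Siglech was at its lowest PBS level. The other 8 did not pass, and over the list 8 of 11 fitted values were below 0. Klk1 was at 24.4, 60.2 and 13.4 CPM after PBS and at 5.997, 7.69 and 0.171 CPM after WGP, without overlap (log2 fold change -2.82, adjusted p = 0.0813). The values of Pacsin1 (-1.63), Cox6a2 (-1.56) and Smim5 (-0.19) were also below 0. Cd300c was at 1.01, 0.488 and 0 CPM after PBS and at 0 in all WGP libraries. Ccr9, a defining marker, was at 9.52, 1.18 and 0.953 CPM after PBS and at 4.15, 6.20 and 3.47 CPM after WGP (log2 fold change 0.25), and the values of Bst2 (0.35) and Runx2 (0.075) were also above 0. These percentages were chosen after the values were seen and are descriptions, and the part of cell mixture in the results was not tested.

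**Figure D3:**
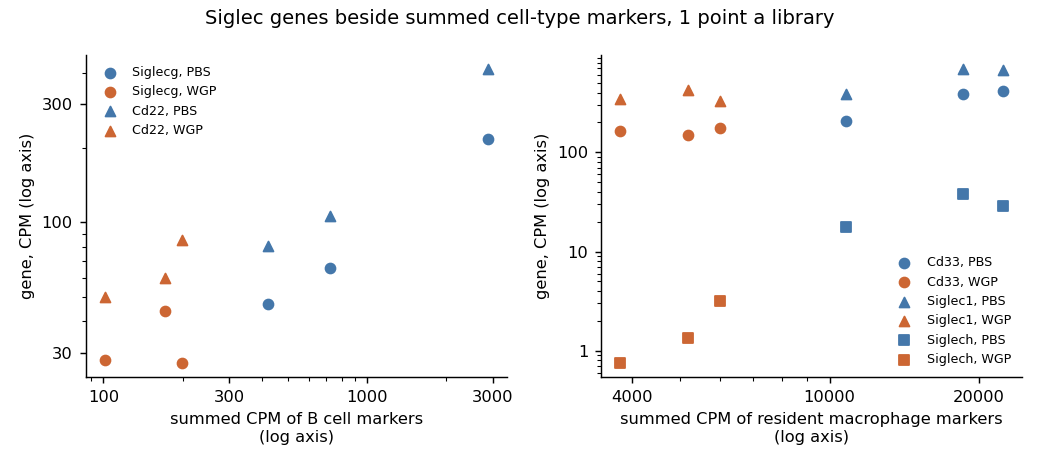
Level of Siglec genes against the summed level of B cell markers (left: Siglecg, Cd22) or resident macrophage markers (right: Cd33, Siglec1, Siglech), in CPM on log axes, with 1 point a library, blue for PBS and orange for WGP. PBS replicate 1 lies far to the right on the left panel, at 2868 CPM, and furthest left of the PBS points on the right panel, at 10805 CPM.

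Other marker lists moved as well. Of 8 acinar cell markers 7 were called lower (summed level 1169–4476 CPM against 294–520 CPM), with Clps at -3.28, and Amy2a5 was at 0 in all WGP libraries. Neutrophil markers had 1 called higher, Cxcr2 (1.30), and 1 lower, Mmp9 (-1.41), of 9 (2268–5852 against 2556–2649 CPM). Eosinophil markers had Alox15 (1.86) called higher and Ear2 (-1.23) lower of 8 (79.9–115 against 47.9–161 CPM). Ccr3 stood at 5.10, 5.98 and 2.44 CPM after PBS and at 32.1, 9.48 and 6.72 CPM after WGP, without overlap (1.83, adjusted p = 0.0779), and Il5ra had a value of -2.01 (adjusted p = 0.105). The other members, Epx, Prg2, Ear1 and Ear6, stood at 0 to 0.353 CPM after WGP and at 0 to 0.733 CPM in PBS replicates 2 and 3, with up to 10.7 CPM in PBS replicate 1. For conventional dendritic cells Cd209a (-1.35) was the 1 gene of 7 called lower, for NK cells Gzma (-1.81) was the 1 of 6, and for T cells Cd8a, at 0 in all PBS libraries and 1.49 to 2.94 CPM after WGP, was the 1 of 6 called higher. Summed levels were 236–254 against 106–197 CPM for conventional dendritic cells, 43.6–198 against 39.3–51.8 CPM for NK cells and 36.8–44.4 against 16.5–51.3 CPM for T cells. Among 16 interferon-stimulated genes 10 were called higher, led by Zbp1 (2.98) and Irf7 (1.96), and Oasl1 (-1.53) was called lower.

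For the 6 genes that passed the adjusted p, the genes of most similar pattern were found as those with the smallest root mean square difference of log2 CPM, centred on each gene's mean, over the 6 libraries among 11671 genes. For Pirb they were Irak3, a brake on Toll-like receptor signalling (0.090), and Tnfrsf1b, the TNF receptor 2 (0.102). Pilra was nearest to Ccr2, the chemokine receptor of Ly6C-high monocytes (0.146), and to Mpeg1, the pore-forming perforin-2 of macrophages (0.148). The neighbours of Cd33 were Soga1 (0.073) and Ank, a pyrophosphate transporter (0.105), and those of Lilr4b were Sgsm2 (0.045) and Mfsd14a (0.061). Siglecg lay nearest to Atp2a3, a calcium pump (0.106), and S1pr4, a sphingosine phosphate receptor (0.123). Siglech had the loosest match, with Cdr2 (0.228) and Kitl, the stem cell factor (0.294).

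Of the other Siglec genes none of the 3 tested passed. Cd22, the other inhibitory Siglec of B cells, stood at 413, 106 and 80.1 CPM after PBS and at 60.0, 84.9 and 50.2 CPM after WGP, with a log2 fold change of -1.62 (SE 0.52, adjusted p = 0.0694). PBS replicate 1 was again the highest library, and without it the value was -0.52 (adjusted p = 0.189). Cd22 was called lower without PBS replicate 3 (-1.99, adjusted p = 0.0198) and with the Y-linked covariate (-2.67, adjusted p = 0.000338). As a percentage of the summed B cell markers Cd22 was 14.4, 14.6 and 19.0% against 34.9, 42.8 and 49.7%. Siglecf, the Siglec of eosinophils, was low at 4.01 to 7.85 CPM against 6.43 to 18.7 CPM (log2 fold change 0.78, adjusted p = 0.377). Mag, a Siglec of myelin, had 0.832 to 6.19 CPM against 9.17 to 13.98 CPM without overlap (1.62, adjusted p = 0.134), and was called with the Y-linked covariate (3.87, adjusted p = 0.0076). Siglec15 was at 0 in all 6 libraries.

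Of the other paired receptors 15 were tested, with fitted values above 0 for 13 and below 0 for 2. Among them 6 were called higher, against 4.53% of all genes, and 1 lower, against 4.96%. With the adjusted p alone 8 passed higher, where 7.54% of all genes did. The median log2 fold change was 1.14, beside -0.05 over all genes. That median is the value of Clec12a, which was on the list although it is a C-type lectin and not an immunoglobulin-like receptor. Sirpa, the inhibitory receptor for CD47, had 560, 760 and 718 CPM after PBS and 1577, 1445 and 1644 CPM after WGP and rose by 1.20 (SE 0.16, adjusted p = 0.000759). Its activating relatives rose too: Sirpb1c by 2.32, Sirpb1b by 2.50 and Sirpb1a by 1.72, of which 29.3 to 46.9% of the windows also occur in another gene. Clec12a, an inhibitory C-type lectin, rose by 1.14 and Pira2 by 1.95, the latter a call that was lost without WGP replicate 1 (adjusted p = 0.0630), without WGP replicate 3 (0.101) and with the Y-linked covariate (0.157).

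Lilra5 was the exception, at 50.9, 91.0 and 59.4 CPM after PBS and 8.30, 5.35 and 14.6 CPM after WGP, and fell by 2.83 (SE 0.37, adjusted p = 0.000645). The collagen receptor Lair1 (0.69, adjusted p = 0.0427) and Pilrb2 (0.90, adjusted p = 0.0139), the neighbour of Pilrb1 whose promoter has 292 of 300 bases in common with it, passed without reaching the fold threshold. Lair1 passed in 7 of the 16 alternatives, with 0.47 and an adjusted p of 0.178 without WGP replicate 3. Pilrb2 passed in 14, but not without WGP replicate 1 (adjusted p = 0.0502) or WGP replicate 3 (0.0518). It was called without PBS replicate 3 (1.05, 0.0109) and with the Y-linked covariate (1.32). Cd200r4 was low, at 0, 1.57 and 3.64 CPM after PBS and at 10.1, 17.9 and 23.7 CPM after WGP, and did not pass (3.31, adjusted p = 0.0781). It was called in 4 of 15 alternatives: DESeq2 (3.30, 0.0143), the replicate block (4.23, 0.0294), without PBS replicate 1 (2.73, 0.0070) and with the Y-linked covariate. The covariate value of 12.4 rests on PBS replicate 1 alone, where the count was 0. Single libraries left out gave 2.73 to 4.46. Also not past the adjusted p were Gm15448 (1.27, 0.110), Gm14548 (0.61, 0.291), Lilra6 (0.50, 0.237), Milr1 (0.44, 0.176) and Cd200r1 (-0.037, 0.966).

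**Figure D4:**
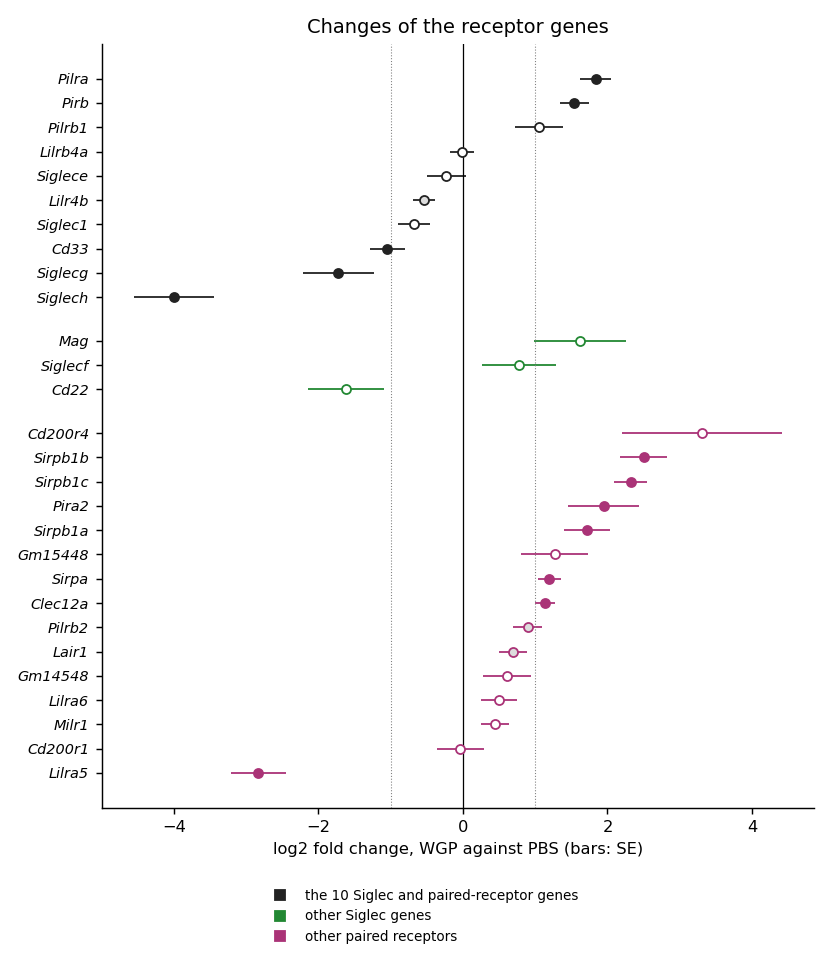
Log2 fold change of WGP against PBS (points) with its standard error (bars) for the 10 genes and the other tested Siglec and paired receptor genes. Filled points were called, grey points passed the adjusted p alone, open points did not pass, and dotted lines mark a log2 fold change of 1 in either direction. Siglech (-4.0) and Lilra5 (-2.83) are the points furthest left. Cd200r4 (3.31), an open point with a wide bar, is furthest right, and the filled points on the right are Pilra, Pirb, the 3 Sirpb1 genes, Pira2, Sirpa and Clec12a.

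None of the adaptors and effectors of these receptors reached the fold threshold with an adjusted p of at most 0.05. Of 5 adaptors and kinases of the activating forms, Fcer1g (0.59, SE 0.15, adjusted p = 0.0250) and Tyrobp (0.53, SE 0.15, adjusted p = 0.0435) passed higher on the adjusted p alone, where 7.54% of all genes did. Tyrobp was at 525, 686 and 621 CPM after PBS and at 879, 824 and 939 CPM after WGP. Hcst (0.41) and Syk (0.15) did not pass. Of 9 genes listed with the effectors of the inhibitory forms 3 passed higher on the adjusted p alone, where 7.54% of all genes did. Ptpn6, which encodes SHP-1, stood at 0.74 (adjusted p = 0.0078), Cbl at 0.58 (0.0178) and Ptprc at 0.71 (0.0073). Ptprc was counted in this list although it is the CD45 sort marker given above. Socs3 had a value of 0.30 (adjusted p = 0.232). The median log2 fold change was 0.41 for the adaptors and 0.19 for the effectors.

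Of 5 Src-family kinases, which phosphorylate the tyrosine motifs, 2 were called higher, against 4.53% of all genes. On the adjusted p alone 3 passed higher, where 7.54% of all genes did. The median log2 fold change was 1.72, the value of Src. That median counts Yes1, named after its values were seen, whose 2.36 (SE 2.87) rests on 0 to 2.73 CPM in the 6 libraries. Fgr was at 189, 177 and 147 CPM after PBS and at 663, 541 and 605 CPM after WGP and rose by 1.82 (SE 0.16, adjusted p = 5.44e-05). Src was low, at 6.32, 1.87 and 6.89 CPM after PBS and at 14.1, 22.2 and 13.4 CPM after WGP, and rose by 1.72 (SE 0.50, adjusted p = 0.0455). Lyn passed at 0.46 without being called.

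**Figure D5:**
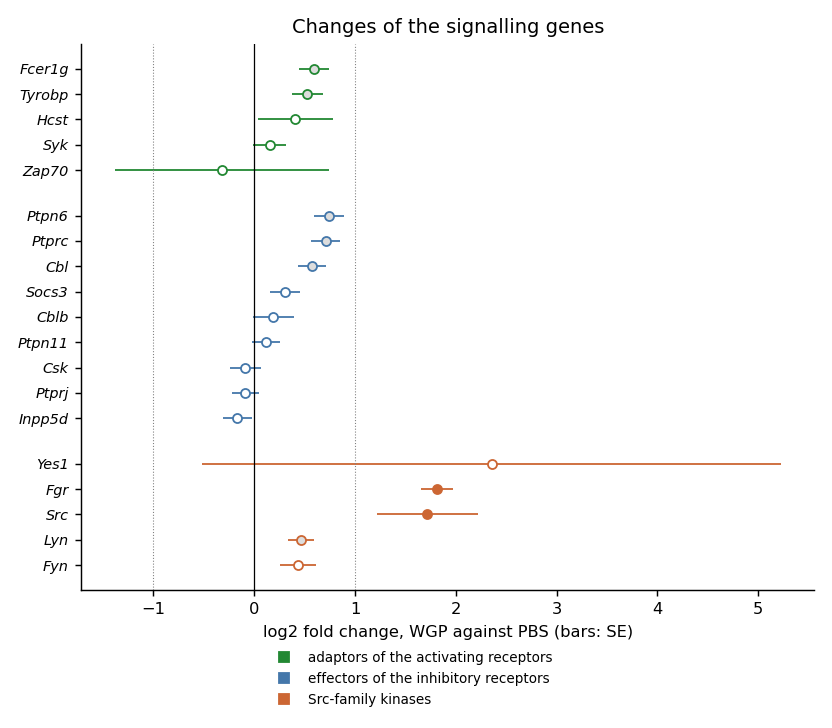
Log2 fold change of WGP against PBS (points) with its standard error (bars) for adaptors of the activating receptors, effectors of the inhibitory receptors and Src-family kinases, with fills as in the plot of receptor changes. Fgr and Src are the filled points.

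Genes that make, modify, attach or degrade sialic acid, the ligand of the Siglecs, had 4 of 25 tested rows called lower, where 4.96% of all genes were. Another 1 passed higher and 20 did not pass, the median log2 fold change was -0.11, and the summed level was 1474–1522 CPM after PBS and 980–995 CPM after WGP. Cmah, which converts the common sialic acid into its glycolyl form, stood at 251, 235 and 221 CPM after PBS and at 18.8, 30.02 and 23.5 CPM after WGP, and fell by 3.29 (SE 0.20, adjusted p = 7.92e-06). St3gal6 and St6gal1, which attach sialic acid to galactose in the linkages that Siglecs bind, fell by 2.98 (SE 0.21) and 2.12 (SE 0.15). Npl, a lyase that breaks sialic acid down, fell by 3.04 (SE 0.45, adjusted p = 0.00122). St3gal4, named after its values were seen, passed higher at 0.59 (adjusted p = 0.0446). Neither of the 2 sialidase genes tested passed, with Neu1 at -0.0069 and Neu3 at 0.90.

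Of 19 genes listed here as ligands 3 were called higher, against 4.53% of all genes, and 3 lower, against 4.96%. H2-D1 was also past the adjusted p (0.78). The MHC class I genes that encode the ligands of Pirb were among the higher ones, with H2-K1 at 1672, 1424 and 1279 CPM after PBS and at 3119, 3536 and 3542 CPM after WGP (1.22, SE 0.16, adjusted p = 0.000623) and B2m at 1.11 (SE 0.16). Cd52, whose product binds Siglecs, rose by 1.32 (SE 0.21). Gas6 fell by 3.55 (SE 0.37, adjusted p = 0.000166) and is also one of the resident macrophage markers counted above. Apoe (-1.31) and Cd209a (-1.35), which like H2-D1 were named after their values were seen, were the others called lower. Cd209a is also one of the conventional dendritic cell markers above. Whether the products of Gas6 and Cd209a bind any of the receptors described here was not examined. The median log2 fold change of the list was 0.11.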

How the data were processed

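Sorted CD45+CD11b+ cells of the pancreas gave 3 libraries per treatment. For these the authors used STAR 2.6 on mm10 and HTSeq 0.10.0, and deposited raw counts per Ensembl gene without normalization (tools per the labels). The strand setting, the annotation release and the handling of duplicate and multi-mapping reads are not given in the sources used here.

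The deposited counts were tested in R 4.3.3 with the quasi-likelihood test of edgeR 4.0.16 (TMM) over the 14429 protein-coding genes with at least 10 normalized counts summed over the libraries, with Benjamini-Hochberg adjustment. The test was checked on simulated counts. A prior of 0.5 counts entered the ratios. Alternatives used limma 3.58.1, DESeq2 1.42.0, other scalings, filters, the replicate block, a Y-linked covariate and each library left out.

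Genes named are the 10 described, the tested genes of both other receptor lists, up to 4 genes of smallest p of each further list and the 2 nearest-pattern genes of each gene that passed, with exceptions given in the text. Naming all eosinophil and plasmacytoid dendritic cell markers, and markers at 0, was decided with their values in view. The genes, lists and patterns were chosen with earlier results of these data known. Siglec5, Cd99, Trac and 7 Pira symbols of the lists have no row in the table used here. Exon lengths and windows come from GENCODE vM21 (GRCm38), the build of the files. St6galnac2 has 2 rows. The values of 1 listed gene are left out here.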

Additional observations from a re-analysis of the deposited data

How the results depend on the processing

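Over the scaling, test and filter alternatives, the block, the covariate and single libraries left out, between 1146 and 1703 genes were called, against 1369. With the adjusted p alone 2071 genes passed, and 568 with a log2 fold change of 2 or more in size, where 1 of the 10 genes remained, Siglech. Leaving out 1 library called 1146 to 1396 genes and 3 to 5 of the 10. Fitted values changed sign for genes that never passed: Lilrb4a (0.16 with the Y-linked covariate, 0.054 without PBS replicate 3, 0.090 without WGP replicate 2, and -0.15 to 0.090 over single libraries left out), Siglece (0.35 with the covariate, -0.45 to 0.018 with libraries left out) and Cd200r1 (0.057 under limma-voom, 0.062 with the block, 0.90 with the covariate, 0.058, 0.24 and 0.046 without PBS replicate 2, PBS replicate 3 and WGP replicate 3, and -0.35 to 0.24 over all left out). Gm14548, which passed without PBS replicate 1 (1.05), was at -0.0065 with the covariate. The cause was not tested. Same-numbered libraries did not deviate together (r = 0.0027, -0.045 and 0.011), so the numbers do not pair them. For the ratios a block gives the same value by construction and is no check. With the replicate block 1341 genes and 4 of the 10 were called, and Cd33 (-0.99, adjusted p = 0.0217) was no longer called. With Gm14548 and Gm15448 in the Pira sum, an alternative added after seeing the data, the log2 difference was 0.82, and with Pira2 alone, added likewise, it was reversed at -0.52. The lowest count of any of the 10 genes was 28, for Siglech in WGP replicate 1.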
